A study of Mus musculus with 30 samples.

Results

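The Polycomb genes followed here are 10 listed genes, 5 that encode subunits of Polycomb repressive complex 2 (PRC2) and 5 that encode subunits or a partner of Polycomb repressive complex 1 (PRC1). The PRC2 genes are Ezh1, Ezh2, Eed, Suz12 and Jarid2. The PRC1 genes are Ring1, Rnf2, Bmi1, Pcgf6 and Scml2. They were taken from a list of names, and the rule sets no limit on a measured value. Of the 10 genes, 9 were among the 13904 genes with an expression level and 8 were among the 5806 transcripts with a half-life. Ring1 had a level but no half-life, and Pcgf6 was listed in neither kind of table.

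The values come from spermatogonial stem cell (SSC) lines, which are cultures of the self-renewing germ cells of the testis that were derived from P7 mice of mixed C57BL/6 and DBA/2J background and grown on mouse embryonic fibroblast feeders. RNA-seq was done on 1 library from a Nanos2TAG/+ line and 1 library from a Nanos2TAG/TAG line. SLAM-seq, in which RNA is labelled with 4-thiouridine and the loss of label is followed over a chase, was done on 12 libraries per line, at 6 chase times between 0 and 1440 min. Both lines carry the tagged allele, in which V5, Myc, His and EGFP sequences are fused to the N-terminus of NANOS2, on either 1 chromosome or both, so neither line is untagged and neither lacks Nanos2, which had 27.5 FPKM in the Nanos2TAG/+ line and 23.8 FPKM in the Nanos2TAG/TAG line. RNA for the RNA-seq library was extracted with QIAzol in the Nanos2TAG/+ line and with Trizol in the Nanos2TAG/TAG line. Each genotype is represented by 1 line, so genotype, line and, for RNA-seq, extraction reagent cannot be told apart, and no difference between the lines below has a replicate check or a p-value.

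PRC2 places methyl groups on histone H3 at genes that are kept silent. EZH1 and EZH2 are its alternative catalytic subunits, EED binds the methyl mark and holds the complex active, SUZ12 is the scaffold, and JARID2 is an accessory subunit that helps to bring the complex to chromatin. PRC1 attaches ubiquitin to histone H2A through RING1 or RNF2, which are alternative E3 ligases that pair with a PCGF protein such as BMI1 (also named PCGF4) or PCGF6, and SCML2 is a PRC1-associated protein of the male germline. In spermatogonia Polycomb complexes are known for keeping somatic genes and genes of later germ cell stages silent.

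NANOS2 is an RNA-binding protein, and the study examined its contact with 3′ UTRs, so the 3′ UTRs of the 10 genes were searched for the letters of the consensus used there on the transcript strand only. The forms searched were AUGAAAU, its variant AUGAAUU, the form AUUAAAU and its variant AUUAAUU. There were 11 matches in 5 of the 10 genes. Suz12 and Rnf2 held 3 each, Bmi1 and Scml2 held 2 each, Jarid2 held 1, and Ezh1, Ezh2, Eed, Ring1 and Pcgf6 held 0. Each match is printed with up to 11 bases on either side and with the match in capitals, because these are the members in which the motif can be placed beside the level and the half-life. Every match lay in the 3′ UTR part of the last exon of the principal transcript (GRCm38, GENCODE M21), and the coordinates are those of the match itself.
Suz12, exon 16, chr11:80032465-80032471, plus strand, 275 nt after the stop codon: acacacaucuuAUUAAAUauauuggguua
Suz12, exon 16, chr11:80033842-80033848, plus strand, 1652 nt after the stop codon: ccugaacaguaAUGAAAUuacuucuguug
Suz12, exon 16, chr11:80034048-80034054, plus strand, 1858 nt after the stop codon: uuuguuuuuacAUUAAAUguuuauuugaa
Jarid2, exon 18, chr13:44920193-44920199, plus strand, 241 nt after the stop codon: ugaggggcuguAUUAAUUuguaucgcccc
Rnf2, exon 8, chr1:151470303-151470309, minus strand, 1007 nt after the stop codon: uuucuuuucuuAUUAAUUcaagaauaaca
Rnf2, exon 8, chr1:151469539-151469545, minus strand, 1771 nt after the stop codon: uuagugguuguAUUAAAUaauuaaauucu
Rnf2, exon 8, chr1:151469531-151469537, minus strand, 1779 nt after the stop codon: uguauuaaauaAUUAAAUucuccuugugg
Bmi1, exon 10, chr2:18685924-18685930, plus strand, 1443 nt after the stop codon: ugcuuguagccAUUAAAUcauuacuuuua
Bmi1, exon 10, chr2:18686083-18686089, plus strand, 1602 nt after the stop codon: auagauguaaaAUUAAAUuucauuuuuaa
Scml2, exon 26, chrX:161257788-161257794, plus strand, 1215 nt after the stop codon: uugaaaggugcAUUAAUUcugacauugag
Scml2, exon 26, chrX:161258190-161258196, plus strand, 1617 nt after the stop codon: auaauaaaguuAUUAAAU

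The last 2 Rnf2 matches lay 8 nt apart and their windows overlap, and the last Scml2 match lay so close to the annotated end of the transcript that no full window could be shown. AUUAAAU was the form in 7 of the 11 matches. Among 3′ UTRs of 13006 genes with a level or a half-life, 38.7% held at least 1 match, at 0.493 matches per kb, and the 10 members held 0.820 per kb. The members' 3′ UTRs ran from 283 nt in Eed to 2148 nt in Bmi1, and longer 3′ UTRs hold a match more often. Of 3′ UTRs within 20% of the length of that of Suz12 (1933 nt), 50.4% held a match, against 50.2% for Rnf2 (1911 nt), 54.7% for Bmi1 (2148 nt), 46.4% for Scml2 (1623 nt) and 47.3% for Jarid2 (1691 nt). Ezh1, with a 3′ UTR of 1823 nt, held none where 48.9% of 3′ UTRs of its length did. The 4 shorter members without a match, Eed (283 nt), Ezh2 (402 nt), Ring1 (590 nt) and Pcgf6 (1012 nt), had length classes in which 13.0%, 16.7%, 22.8% and 32.9% held one. These are matches of letters and not measured binding.

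The Pumilio motif, written UGUANAUA where N is any base, was also searched, because Pumilio proteins are known as partners of Nanos proteins in other animals. Suz12 held 3 matches at 1115, 1232 and 1888 nt after its stop codon, Jarid2 held 1 at 1059 nt and Pcgf6 held 1 at 966 nt. No match of this motif overlapped a match of the first. Over the same 13006 genes 25.4% held at least 1, and 33.4% of 3′ UTRs of the length of that of Suz12 did. Suz12 was thus the member with the most matches to both motifs together, and its last matches to each began 1858 and 1888 nt after the stop codon. For neither motif was the share of 3′ UTRs with at least 3 matches computed.

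**Figure D1:**
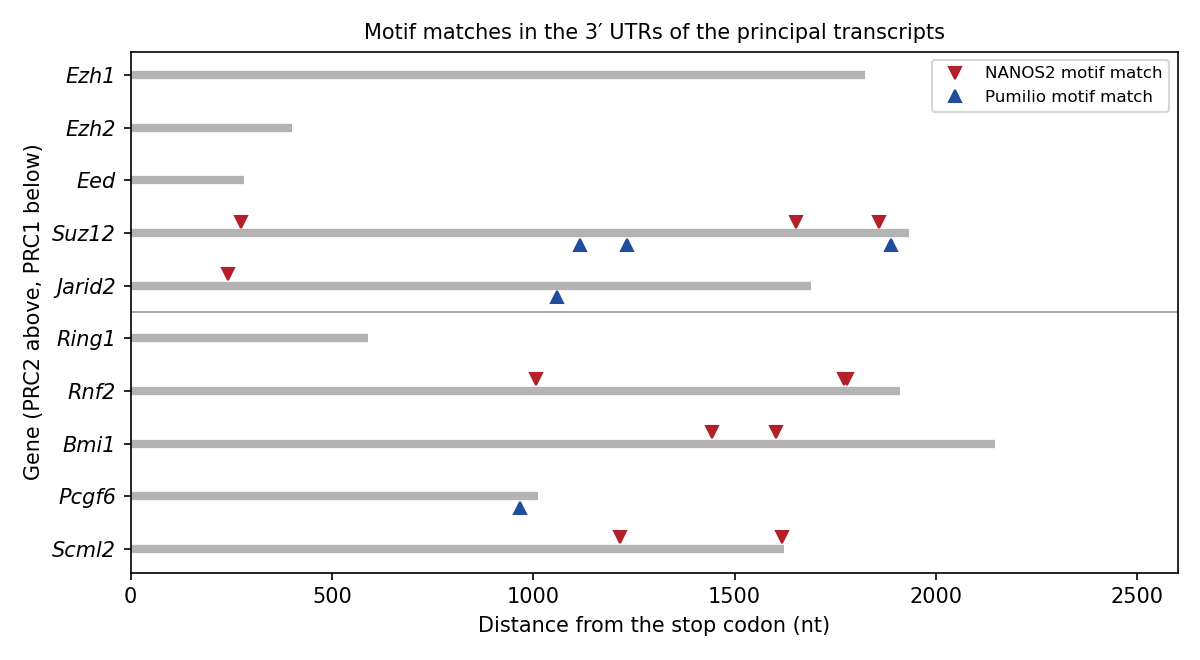
Map of the 3′ UTRs of the principal transcripts of the 10 Polycomb genes, with the distance from the stop codon in nt on the x axis and 1 gene per line on the y axis. Downward triangles mark the 11 matches to the NANOS2 consensus letters and upward triangles the 5 Pumilio matches; Suz12 holds 3 of each, and Ezh1, Ezh2, Eed and Ring1 hold neither.

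Expression levels are given as FPKM, the fragments per kilobase of gene length, scaled to library size. The lengths behind them are the mean length of all annotated transcripts of a gene, so whole reads could be recovered. The scaling depth was 10908790 reads in the Nanos2TAG/+ line and 11738620 reads in the Nanos2TAG/TAG line. The recovered reads summed to 10977831 and 11656606, so the scaling was close to these sums and not equal to them. Whether the whole numbers are counted reads or rounded estimates is not given in the sources used here. Ranges after a ratio of levels are exact 95% intervals from these reads and cover counting error only. Of 12 markers of undifferentiated spermatogonia 11 had a level, between 1.76 and 213.8 FPKM in the Nanos2TAG/+ line and between 1.59 and 191.7 FPKM in the Nanos2TAG/TAG line, and Dazl was not listed. Their summed level was 768 and 1003 FPKM, but the rise was not shared by all of them. Of the 11, 5 (Gfra1, Ret, Etv5, Utf1 and Ddx4) were higher in the Nanos2TAG/TAG line. Zbtb16, Id4, Nanos2, Nanos3, Lin28a and Sall4 were lower there. Of 6 markers of differentiating or meiotic germ cells 5 had a level, with sums of 238 and 178 FPKM. Sohlh2 made up most of these sums, at 173.3 and 125.2 FPKM. Of these 5 markers, 1 (Sycp1) was higher in the Nanos2TAG/TAG line and the others were lower. Of 7 markers of testis somatic cells 3 had a level, with sums of 9.12 and 8.35 FPKM. Of 9 fibroblast markers 7 had a level, from 0.660 to 51.0 FPKM in the Nanos2TAG/+ line and from 6.75 to 74.2 FPKM in the Nanos2TAG/TAG line, with sums of 103 and 163 FPKM, and 6 of the 7 were higher in the Nanos2TAG/TAG line. The feeders were depleted before extraction, and for RNA-seq the methods describe SSCs sorted by a scatter gate set to leave out remaining feeder cells. Polycomb genes are active in fibroblasts too, and the part of remaining feeder RNA in the values below was not tested. In bulk RNA a smaller number of expressing cells and less RNA per cell cannot be told apart.

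The PRC2 and PRC1 transcripts were well expressed in both lines. Of the 9 genes with a level, 8 were above the median of all genes in both lines (10.2 FPKM in Nanos2TAG/+ and 10.5 FPKM in Nanos2TAG/TAG), where 45.7% of all genes were. Suz12 was the exception, above the median in the Nanos2TAG/+ line and below it in the Nanos2TAG/TAG line. Jarid2 and Scml2 were the most abundant, and Suz12 had the lowest level, in both lines. In the Nanos2TAG/+ line Suz12 did not differ from Ring1 by FPKM beyond counting error. The ratio of Ring1 over Suz12 there was 1.10 (0.936 to 1.29).

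Ezh1 (chr11:101191115-101226463, minus strand) had 88.0 FPKM in the Nanos2TAG/+ line and 69.7 FPKM in the Nanos2TAG/TAG line, from 1724 and 1470 reads. Ezh2 (chr6:47530139-47595341, minus strand), the paralogue most often linked to dividing cells, had 18.6 FPKM and 20.7 FPKM, from 283 and 339 reads. Among the catalytic subunits of PRC2, Ezh1 was therefore the more abundant transcript, by 4.74-fold (4.17 to 5.39) in the Nanos2TAG/+ line and by 3.37-fold (2.99 to 3.81) in the Nanos2TAG/TAG line. The annotated transcripts of these genes share none of their 31-base words, so reads of that length could not be exchanged between them.

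Eed (chr7:89954654-89980983, minus strand) had 94.9 FPKM in the Nanos2TAG/+ line and 65.2 FPKM in the Nanos2TAG/TAG line, from 843 and 623 reads. Eed and Ezh1 were neighbours in the order of FPKM and did not differ beyond counting error in either line, with ratios of 1.08 (0.992 to 1.17) for Eed over Ezh1 in the Nanos2TAG/+ line and 1.07 (0.973 to 1.18) for Ezh1 over Eed in the Nanos2TAG/TAG line. Suz12 (chr11:79993106-80034123, plus strand), which shows 3 matches to each motif above, had 15.5 FPKM and 7.68 FPKM, from 309 and 165 reads. The scaffold transcript of PRC2 was thus 6.13-fold (5.37 to 7.01) less abundant than that of Eed in the Nanos2TAG/+ line and 8.48-fold (7.14 to 10.1) less abundant in the Nanos2TAG/TAG line. Jarid2 (chr13:44729474-44921643, plus strand) had 149.6 FPKM and 163.6 FPKM, from 3523 and 4146 reads, and was the highest of the 9 genes by FPKM in both lines.

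On the PRC1 side, Ring1 (chr17:34020792-34024680, minus strand) had 17.0 FPKM in the Nanos2TAG/+ line and 13.6 FPKM in the Nanos2TAG/TAG line, from 307 and 263 reads. Rnf2 (chr1:151458004-151500955, minus strand), the other E3 ligase, had 43.9 FPKM and 34.7 FPKM, from 683 and 582 reads. Rnf2 exceeded Ring1 by 2.57-fold (2.25 to 2.96) and 2.56-fold (2.21 to 2.97), so the ratio of the ligase transcripts was nearly the same in both lines. No 31-base word was shared between their annotated transcripts.

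Bmi1 (chr2:18677018-18686629, plus strand) had 38.3 FPKM in the Nanos2TAG/+ line and 48.1 FPKM in the Nanos2TAG/TAG line, from 527 and 712 reads. Of its 31-base words 71.8% occurred in no other annotated gene, and the transcribed processed pseudogene Gm5946 shared most of the others, so the Bmi1 level is uncertain where reads were split between the genes. By FPKM, Rnf2 was above Bmi1 in the Nanos2TAG/+ line, by 1.14-fold (1.02 to 1.28). In the Nanos2TAG/TAG line the order by FPKM was the opposite, with Bmi1 above Rnf2 by 1.39-fold (1.24 to 1.55). Scml2 (chrX:161117193-161258213, plus strand) had 125 FPKM and 120 FPKM, from 4498 and 4655 reads, and was the second gene by FPKM in both lines. Pcgf6 (chr19:47033617-47050906, minus strand) had no value in the tables used here.

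Ezh2, Eed, Suz12, Jarid2 and Rnf2 overlap other annotated genes on the opposite strand, and Eed and Rnf2 overlap 1 more gene each on their own strand. The strand setting used in counting is not given in the sources used here. Of the 31-base words of these genes between 92.4% (Eed) and 99.8% (Jarid2) were unique to the gene.

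The order of the genes depended in part on the length used. The mean length of annotated transcripts includes short noncoding ones, and it was 814 nt for Eed, whose principal transcript has 2067 nt, and 3297 nt for Scml2, whose principal transcript has 4842 nt. Reads per kilobase of the principal transcript, with the same scaling to library size, a scale chosen after seeing the data, put Scml2 above Jarid2, with 85.2 against 53.9 in the Nanos2TAG/+ line and 81.9 against 58.9 in the Nanos2TAG/TAG line. On this scale Ezh1 still exceeded Ezh2, by 4.05-fold (3.57 to 4.61) and 2.88-fold (2.56 to 3.25), and Rnf2 exceeded Ring1 by only 1.41-fold in each line (1.23 to 1.62 and 1.21 to 1.63). Bmi1 and Ring1 did not differ beyond counting error in the Nanos2TAG/+ line, at 13.4 and 13.8, and Bmi1 was the higher in the Nanos2TAG/TAG line, at 16.9 against 11.02. Rnf2 was above Bmi1 by 1.46-fold (1.30 to 1.63) in the Nanos2TAG/+ line. In the Nanos2TAG/TAG line Bmi1 and Rnf2 did not differ beyond counting error on this scale, with a ratio of 1.09 (0.975 to 1.22) for Bmi1 over Rnf2. Suz12 was the lowest gene on both scales in both lines, at 6.48 and 3.21 on the second scale.

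**Figure D2:**
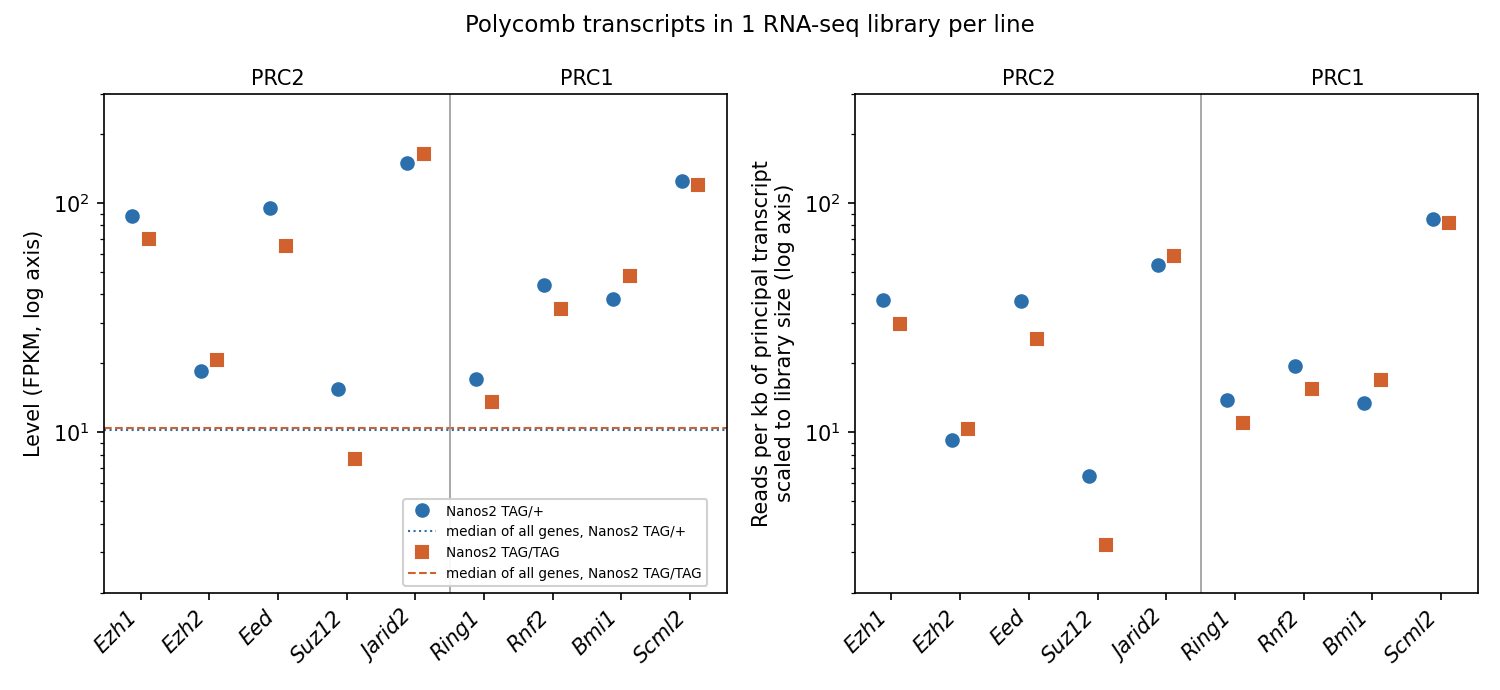
Levels of the 9 Polycomb genes with a value, as FPKM (left) and as reads per kb of the principal transcript with the same scaling (right), both on log axes, with circles for the Nanos2TAG/+ library and squares for the Nanos2TAG/TAG library. The horizontal lines on the left are the medians of all genes (10.2 and 10.5 FPKM), which only Suz12 crosses between the lines; Jarid2 is highest on the left and Scml2 on the right.

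The complexes were then set side by side, with the genes of a complex taken as its members and not as replicates. The median level was 88.0 FPKM in the Nanos2TAG/+ line and 65.2 FPKM in the Nanos2TAG/TAG line over the 5 PRC2 genes. It was 41.1 and 41.4 FPKM over the 4 PRC1 genes with a level. The ranges overlapped almost entirely, from 15.5 to 149.6 FPKM for PRC2 and from 17.0 to 125 FPKM for PRC1 in the Nanos2TAG/+ line. In the Nanos2TAG/TAG line they ran from 7.68 to 163.6 FPKM and from 13.6 to 120 FPKM. The size of the PRC2 excess depended on the genes and the average used. By medians PRC2 exceeded PRC1 by 1.10 and 0.67 on the log2 scale with all members. It exceeded PRC1 by 0.08 in each line without Jarid2 and Scml2. With means of log2 values over all members the difference was 0.24 and 0.02. No difference in level between the complexes is read from these values.

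Between the lines, Suz12 was the member that differed most in level. Its 15.5 FPKM in the Nanos2TAG/+ line stood against 7.68 FPKM in the Nanos2TAG/TAG line, a ratio of 0.496 (0.408 to 0.601). It was the single member past the 2-fold limit, which was set on log2 of FPKM plus 0.1 among genes with a mean of at least 1 FPKM, and 0 members were past it in the other direction. Among the 12546 genes tested 8.67% were more than 2-fold lower and 11.7% more than 2-fold higher in the Nanos2TAG/TAG line, so 1 lower gene of 9 is near the background. Suz12 lay just beyond the limit, and it no longer passed with a pseudocount of 1 or with the ratios centred on the median of all genes.

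Of the other members none passed the limit. Eed came next to Suz12, with a ratio of 0.687 (0.618 to 0.763), followed by Rnf2, Ezh1 and Ring1 with ratios of 0.792, 0.792 and 0.796, and the intervals of all 4 excluded 1. Bmi1 had the highest ratio, 1.26 (1.12 to 1.41), and Jarid2 had 1.09 (1.05 to 1.14). Ezh2, at 1.11 (0.948 to 1.31), and Scml2, at 0.962 (0.923 to 1.00), had intervals that included 1. The ratio was below 1 for 3 of the 5 PRC2 genes and for 3 of the 4 PRC1 genes. The median log2 ratio was −0.34 for PRC2 and −0.19 for PRC1, where that of all genes tested was −0.0025 and their quartiles were −0.43 and 0.46. The log2 ratios of 7 of the 9 members, that is of all but Suz12 and Eed, lay within those quartiles.

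Half-lives, in minutes, were available for 8 members, with 1 fitted value per transcript and line and no error or depth. They were measured from reads at the 3′ ends of transcripts. The median over all 5806 transcripts was 224 min in the Nanos2TAG/+ line and 226 min in the Nanos2TAG/TAG line, and the quartiles were 162 and 289 min, and 159 and 300 min. Most Polycomb transcripts decayed at about this rate. Scml2 was far more stable, and Suz12 was the least stable in both lines.

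For the catalytic subunits of PRC2, the half-life of Ezh1 was 215 min in the Nanos2TAG/+ line and 262 min in the Nanos2TAG/TAG line. That of Ezh2 was 241 min and 230 min. So Ezh2 had the longer half-life in the former line and Ezh1 in the latter, while Ezh1 was the more abundant in both. Eed had 282 min and 254 min, the longest of PRC2 in the Nanos2TAG/+ line. Jarid2 had 248 min and 231 min. Suz12, with 3 matches to each motif, had 164 min and 180 min, which placed it at the 25.5th and 32.7th percentile of all transcripts.

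Among the PRC1 genes, the half-life of Rnf2, which holds 3 matches to the NANOS2 letters, was 218 min in the Nanos2TAG/+ line and 270 min in the Nanos2TAG/TAG line. That of Bmi1, which holds 2, was 194 min and 304 min. Scml2, which also holds 2, had 478 min and 527 min, at the 94.2nd and 94.0th percentile of all transcripts. The members with matches to these letters included both Suz12, with the shortest half-life, and Scml2, with the longest. A relation between the matches and half-life was not tested.

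**Figure D3:**
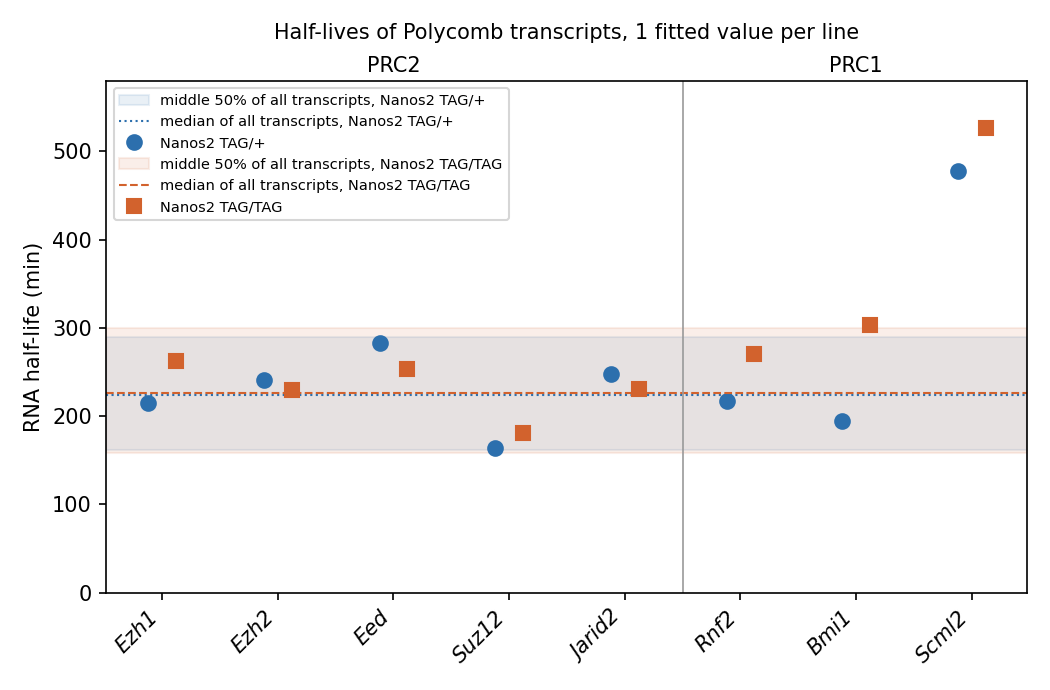
RNA half-lives in min of the 8 Polycomb transcripts with a value, with circles for the Nanos2TAG/+ line and squares for the Nanos2TAG/TAG line. The bands show the quartiles and the horizontal lines the medians (224 and 226 min) of all 5806 transcripts; Scml2 lies above both bands at 478 and 527 min, and Suz12 is the lowest in both lines at 164 and 180 min.

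Of the 8 half-lives, 4 were above the median of all transcripts in both lines (Ezh2, Eed, Jarid2 and Scml2), where 39.8% of all transcripts were. Suz12 alone was below it in both lines, as 39.8% of all transcripts were. Ezh1, Rnf2 and Bmi1 were below it in the Nanos2TAG/+ line and above it in the Nanos2TAG/TAG line. The share of all transcripts that changed sides in this way was not computed. Abundant transcripts tended to have longer half-lives in these tables, so each member was also set against the transcripts of its own class among 10 classes of equal size by mean FPKM. By that measure Ezh2, Eed and Scml2 were above the median in both lines and Suz12 and Jarid2 were below it. The matching shares of all transcripts were not computed for these classes. Jarid2, in the highest class, had 248 and 231 min against medians of 339 and 365 min. Suz12, in class 3 from the lowest, had 164 and 180 min against 189 and 190 min.

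The comparison of the complexes by median half-life turned around between the lines. The median of the 5 PRC2 transcripts was 241 min in the Nanos2TAG/+ line and 231 min in the Nanos2TAG/TAG line. That of the 3 PRC1 transcripts was 218 min, the value of Rnf2, and 304 min, the value of Bmi1. PRC2 was therefore the higher by 23.7 min in the Nanos2TAG/+ line, and the difference was −72.8 min in the Nanos2TAG/TAG line. In the Nanos2TAG/+ line the ranges overlapped, from 164 to 282 min for PRC2 and from 194 to 478 min for PRC1. In the Nanos2TAG/TAG line they did not, since the highest PRC2 value was 262 min (Ezh1) and the lowest PRC1 value was 270 min (Rnf2), a gap of a few minutes between values without an error. With the geometric mean in place of the median, PRC2 was 45.8 min below PRC1 in the Nanos2TAG/+ line too. The difference by that mean was −121.5 min in the Nanos2TAG/TAG line, so the turn depended on the use of the median. No difference in half-life between the complexes is read from these values.

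Bmi1 was the member whose half-life differed most between the lines. It was 194 min in the Nanos2TAG/+ line and 304 min in the Nanos2TAG/TAG line, a ratio of 1.56. It was the single member of 8 past the 1.5-fold limit, and 0 were past it in the other direction. Of all 5806 transcripts 10% were more than 1.5-fold longer and 10.7% more than 1.5-fold shorter in the Nanos2TAG/TAG line, so 1 of 8 is near the background. Its pseudogene shares sequence with it, as given above, and whether reads of the pseudogene entered the fit was not tested.

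The other PRC1 transcripts with a half-life also had the longer value in the Nanos2TAG/TAG line, with ratios of 1.24 for Rnf2 and 1.10 for Scml2. Of the PRC2 transcripts 2 had a ratio above 1, Ezh1 at 1.22 and Suz12 at 1.10, and 3 had a ratio below 1, Ezh2 at 0.952, Jarid2 at 0.930 and Eed at 0.898. The median ratio was 1.24 for PRC1 and 0.952 for PRC2, where that of all transcripts was 1.03. On the log2 scale the quartiles of all transcripts were −0.24 and 0.28. Of the members only Bmi1 and Rnf2 lay outside those quartiles, and Ezh1 lay just within the upper one. The share of all transcripts with a ratio above 1 was not computed. Level and half-life did not move together in each gene. Bmi1 was higher in both measures and Eed lower in both. Suz12 had the largest drop in level beside a half-life that was 1.10 times as long, and Rnf2 and Ezh1 had lower levels beside longer half-lives.

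**Figure D4:**
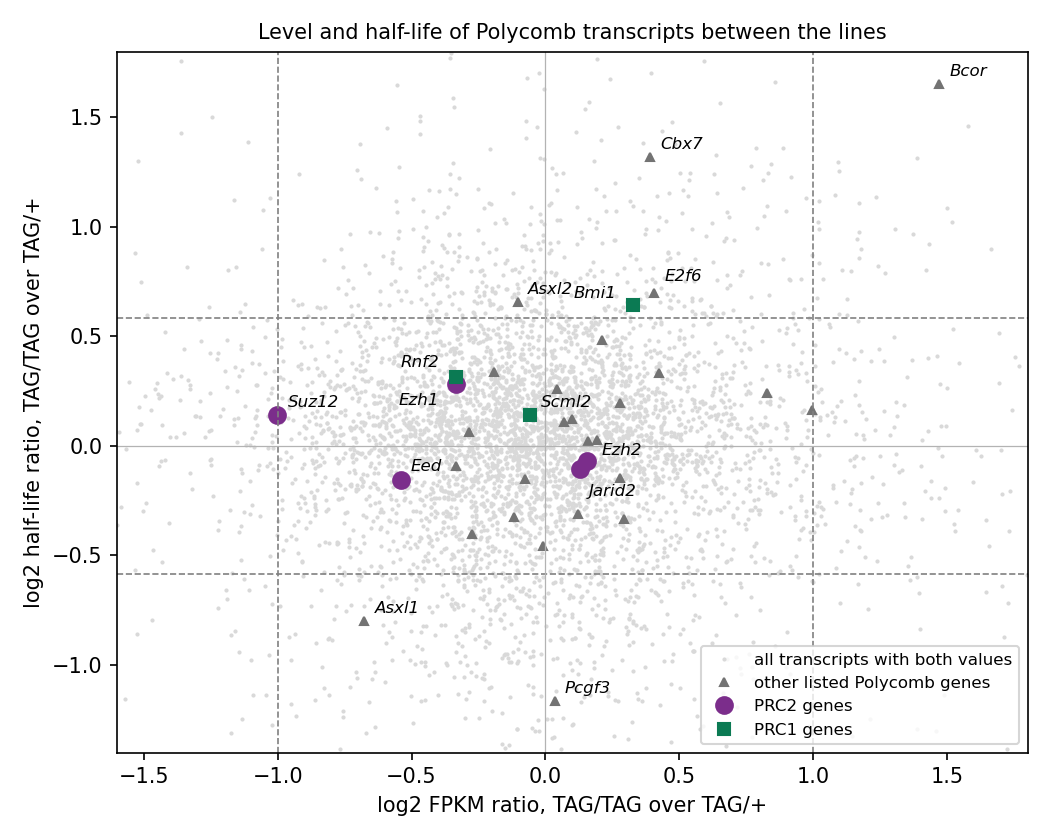
Difference between the lines in level (x axis, log2 FPKM ratio) and in half-life (y axis, log2 half-life ratio), both as Nanos2TAG/TAG over Nanos2TAG/+, for PRC2 genes (circles), PRC1 genes (squares), other listed Polycomb genes (triangles) and all 5152 transcripts with both values (grey, 166 of them beyond the axes). Dashed lines mark the limits of 2-fold and 1.5-fold; Suz12 lies at the left limit, Bmi1 is the member above the upper one, and Bcor is past both.

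The wider Polycomb system was described with 44 other listed genes, 40 of which had a level and 29 a half-life. Among the 10 PRC2 partners, 7 had a level and 0 were past 2-fold in either direction. The histone chaperone gene Rbbp4 was the highest, at 444 and 388 FPKM, and the accessory gene Lcorl the lowest, at 3.03 and 3.13 FPKM. Their half-lives, 4 in number, were between 194 and 454 min over both lines, with Rbbp4 the longest (360 and 454 min) and Phf1 the shortest (227 and 194 min), and 0 were past 1.5-fold. Phf1, Ezhip and Lcor had no level.

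Among the 27 PRC1 partners, 26 had a level, 1 was more than 2-fold higher and 1 more than 2-fold lower in the Nanos2TAG/TAG line, both below the background shares of 11.7% and 8.67%. Bcor, a corepressor in the PRC1 form built around PCGF1, had 12.4 FPKM in the Nanos2TAG/+ line and 34.6 FPKM in the Nanos2TAG/TAG line, from 612 and 1834 reads, a ratio of 2.78 (2.54 to 3.06). Scml4, a relative of Scml2, had 3.98 and 1.46 FPKM, from 86 and 34 reads, a ratio of 0.367 (0.239 to 0.552). Phc1, a subunit of canonical PRC1 that forms chromatin-bound polymers, was the highest of these genes by the mean of both lines, though not in the Nanos2TAG/+ line alone, where the highest had 116 FPKM, and lay just under the limit, at 96.3 and 192.2 FPKM and a ratio of 1.996 (1.902 to 2.096). Cbx6 had no level.

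Of the 20 PRC1 partners with a half-life, 3 were past 1.5-fold longer and 1 past 1.5-fold shorter in the Nanos2TAG/TAG line, beside 10% and 10.7% of all transcripts. Bcor went from 84.1 to 264 min, a ratio of 3.14, and was past the limit in level as well. The share of all transcripts past both limits was not computed. Cbx7, a chromobox reader of methylated histone H3, had 75.9 and 189 min, and E2f6, a DNA-binding subunit of the PRC1 form built around PCGF6, had 136 and 220 min. Pcgf3 had 247 and 110 min, with an almost equal level in both lines, at 44.5 and 45.6 FPKM. Phc1 had the longest half-life of this list, at 342 and 384 min. With the partners included, the median half-life of PRC2 genes was above that of PRC1 genes in both lines, by 51.1 min in the Nanos2TAG/+ line and by 20.51 min in the Nanos2TAG/TAG line, so the order of the complexes in the Nanos2TAG/TAG line depended on which genes were counted.

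The 7 enzymes and cofactors that remove the Polycomb marks all had a level, and 0 of the 6 that passed the filter were past 2-fold. Bap1, the H2A deubiquitinase, was the highest, at 160.2 and 159 FPKM, and had the longest half-life, at 328 and 239 min. Asxl3 was the lowest, at 0.731 and 0.924 FPKM. The BAP1 cofactor genes moved in opposite directions in half-life. Asxl2 had 73.8 and 116 min, a ratio of 1.58, and Asxl1 had 184 and 105 min, a ratio of 0.574, while their levels were 14.3 and 13.3 FPKM for Asxl2 and 77.2 and 48.3 FPKM for Asxl1. Over all 44 other genes 1 was more than 2-fold higher and 1 more than 2-fold lower of 39 that passed the filter, beside 11.7% and 8.67% of all genes tested. Of 29 half-lives 4 were past 1.5-fold longer and 2 past 1.5-fold shorter, beside 10% and 10.7% of all transcripts. The median log2 level ratio of these genes was 0.10, and their median half-life ratio was 1.04.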

How the data were processed

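The CRAC libraries of the series (2 Nanos2TAG/TAG and 2 control) were not used here. RNA-seq libraries were made from RNA without ribosomal RNA and read over 50 bp, and the authors deposited FPKM. The submitters' processing notes name kallisto and DESeq2 for these samples, with no version. Genome build and annotation for RNA-seq are not given in the sources used here. The column marked GG was taken as Nanos2TAG/TAG and the column marked Gp as Nanos2TAG/+, from the names alone, since each G can stand for an allele with EGFP. Multiplying the deposited FPKM by the mean length of all GENCODE M21 transcripts of a gene returned whole reads, within 0.02, for 100% of 13884 genes. The recovery was tested on simulated data. Half-lives in minutes were deposited by the authors. Their line was taken from the names of the tables, which give the genotypes, while the sample labels cite tables of other names, so the line of each half-life rests on those names. Conversion rates from SlamDunk were set relative to time 0, technical replicates were collapsed and a first-order decay was fitted with nls, over 12 libraries per line. The filter on transcripts is not given in the sources used here.

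For ratios, 0.1 was added to each FPKM, with a filter of mean FPKM of at least 1. Intervals of ratios are exact binomial (Clopper-Pearson) intervals at the 95% level. With 1 library and 1 half-life per line, no test was run. Gene positions and 3′ UTRs were taken from the APPRIS principal transcript on GRCm38. The genes named in the text are the 10 members, the other listed genes past 2-fold in level or 1.5-fold in half-life, and the highest, lowest, longest-lived and shortest-lived of each list; Phc1 was named for its place in its list. The results of 1 of the other listed genes that meet this rule are not reported here. The members and lists were chosen with earlier results of these data known. Python 3 scripts with numpy, scipy and pandas were used.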

Additional observations from a re-analysis of the deposited data

How the results depend on the processing

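Of 36 alternative values, 24 stayed within the spread between the lines or within 1.5 times a count, 8 moved and 4 changed sign. Some of the 24 could not move, since all 9 members with a level passed the filter on FPKM. For half-life the spread was wide, because the differences in the lines had opposite signs. The log2 difference in level of PRC2 over PRC1 (1.10 in the Nanos2TAG/+ line and 0.67 in the Nanos2TAG/TAG line) was 0.0778 and 0.0805 with core members only, 0.24 and 0.0199 with means of log2 values, and −0.38 and −0.55 with partners included. The difference in half-life (23.7 and −72.8 min) became −45.8 min with the mean of log2 values in the Nanos2TAG/+ line and 20.51 min with partners in the Nanos2TAG/TAG line. The count of members more than 2-fold lower, 1 (Suz12), was 0 with a pseudocount of 1 and 0 after centring on the median of all genes. The count of members more than 1.5-fold longer-lived, 1 (Bmi1), was 0 at 2-fold, and the count of members below the median half-life in both lines, 1, was 2 against the same class of FPKM. The length of the principal transcript, chosen after seeing the data, kept both differences in level (1.18 and 0.66). The causes were not tested, other than that fewer or other genes entered some medians. Leaving out a replicate was not possible with 1 library and 1 half-life per line. No paired analysis was possible because the lines have 1 RNA-seq library each and the half-lives combine the numbered SLAM-seq libraries into 1 fit. Among the members, depth limits the levels of Suz12, Ezh2 and Ring1 most, several of the other listed genes have fewer reads, and no depth is known behind the half-lives.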
